A study of Rattus norvegicus with 12 samples.

Results

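The genes described here are 7 transporters of the blood-brain barrier, the layer of brain endothelial cells that separates blood from brain tissue. They are the efflux pumps Abcg2 and Abcb1a and the carriers Mfsd2a, Slco1c1, Slc2a1, Slc7a5 and Slc19a3. They were chosen by name, with no threshold on measured values, from the 17310 genes of the count tables. Earlier results of these data were known when they and the gene lists below were chosen. All 7 passed the filter on low counts, which left 12856 genes for testing. The RNA came from hypothalamic tissue around the paraventricular nucleus (PVH), the nucleus whose neurons drive pituitary and adrenal hormone release, of wild type male Wistar rats aged 12 weeks.

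The study had 12 libraries in 6 groups of 2. The groups were rats with 12 days of high corticosterone (high Cort), rats given corticosterone acutely and sampled at 1 h (1 h acute) or at 3 h (3 h acute), adrenalectomised rats with corticosterone supplements (supplemented ADX), rats at 7 days after adrenalectomy (ADX), and sham-operated rats (sham). Corticosterone is the principal adrenal glucocorticoid in this species, and adrenalectomy removes its source. The labels named no vehicle group, no dose and no duration for the supplements, and did not state whether the acutely treated rats had adrenal glands. Nothing stated whether a library was 1 rat or a pool, so the p-values take in no more than the spread between libraries, part or all of which may be technical.

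Brain endothelial cells are joined by tight junctions, so that most nutrients reach the brain through carriers and many lipid-soluble compounds are sent back to the blood by pumps driven by ATP. Abcg2, also known as Bcrp, and Abcb1a, one of the rodent P-glycoproteins, are such pumps. Mfsd2a carries lysophosphatidylcholine with its fatty acids and is known for holding down transcytosis in this endothelium. Slco1c1 carries thyroxine, Slc2a1 (GLUT1) carries glucose, Slc7a5 (LAT1) carries large neutral amino acids and thyroid hormone, and Slc19a3 carries thiamine. Several of them are also made outside endothelium, among them Slco1c1 in astrocytes and in choroid plexus and Slc2a1 in astrocytes, so a level in this tissue is not that of endothelium alone.

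Libraries held 17674159 to 36249006 fragments. The PVH genes Avp (58.1 to 201.3 CPM), Oxt (179.2 to 415.1 CPM) and Sim1 (36.5 to 54.0 CPM) were detected in every library, where CPM is the fragment count of a gene scaled to library size, with TMM factors. All 20 general endothelial markers were tested, and their summed level was 591.4 to 718.0 CPM, beside 7091 to 7542 CPM for 12 astrocyte markers. Choroid plexus markers summed to 19.5 to 25.6 CPM, with its channel genes Aqp1 and Kcnj13 at no more than 0.328 and 0.183 CPM. The summed level of 13 thalamus markers, from a neighbouring region, ranged from 1016 to 3153 CPM, and the 18S ribosomal RNA gene Rn18s was highest in high Cort replicate 1 at 3568 CPM.

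Per length, the carriers Slc2a1, Slco1c1 and Slc7a5 lay above both pumps, and Mfsd2a and Slc19a3 lay below them. In FPKM (the authors' values, which also divide by transcript length and are comparable within one processing run), Slc2a1 was highest in sham rats at 76.8 ± 4.28 (SD, n = 2, as for every mean below), followed by Slco1c1 at 49.1 ± 0.524 and Slc7a5 at 46.2 ± 0.432. Abcb1a stood at 14.96 ± 0.115, Abcg2 at 10.5 ± 0.563, Mfsd2a at 8.59 ± 0.385 and Slc19a3 at 1.69 ± 0.162 FPKM. The 2 sham values of each gene lay apart from those of its neighbours in this order. In high Cort rats the order differed at 2 places. Abcg2 reached 19.7 ± 0.802 FPKM there and lay above Abcb1a at 16.4 ± 0.485 FPKM, while Slc7a5 at 47.6 ± 1.76 FPKM lay above Slco1c1 at 38.3 ± 1.30 FPKM. In ADX rats Slc7a5 at 47.2 ± 0.712 FPKM likewise lay above Slco1c1 at 40.0 ± 0.227 FPKM.

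**Figure D1:**
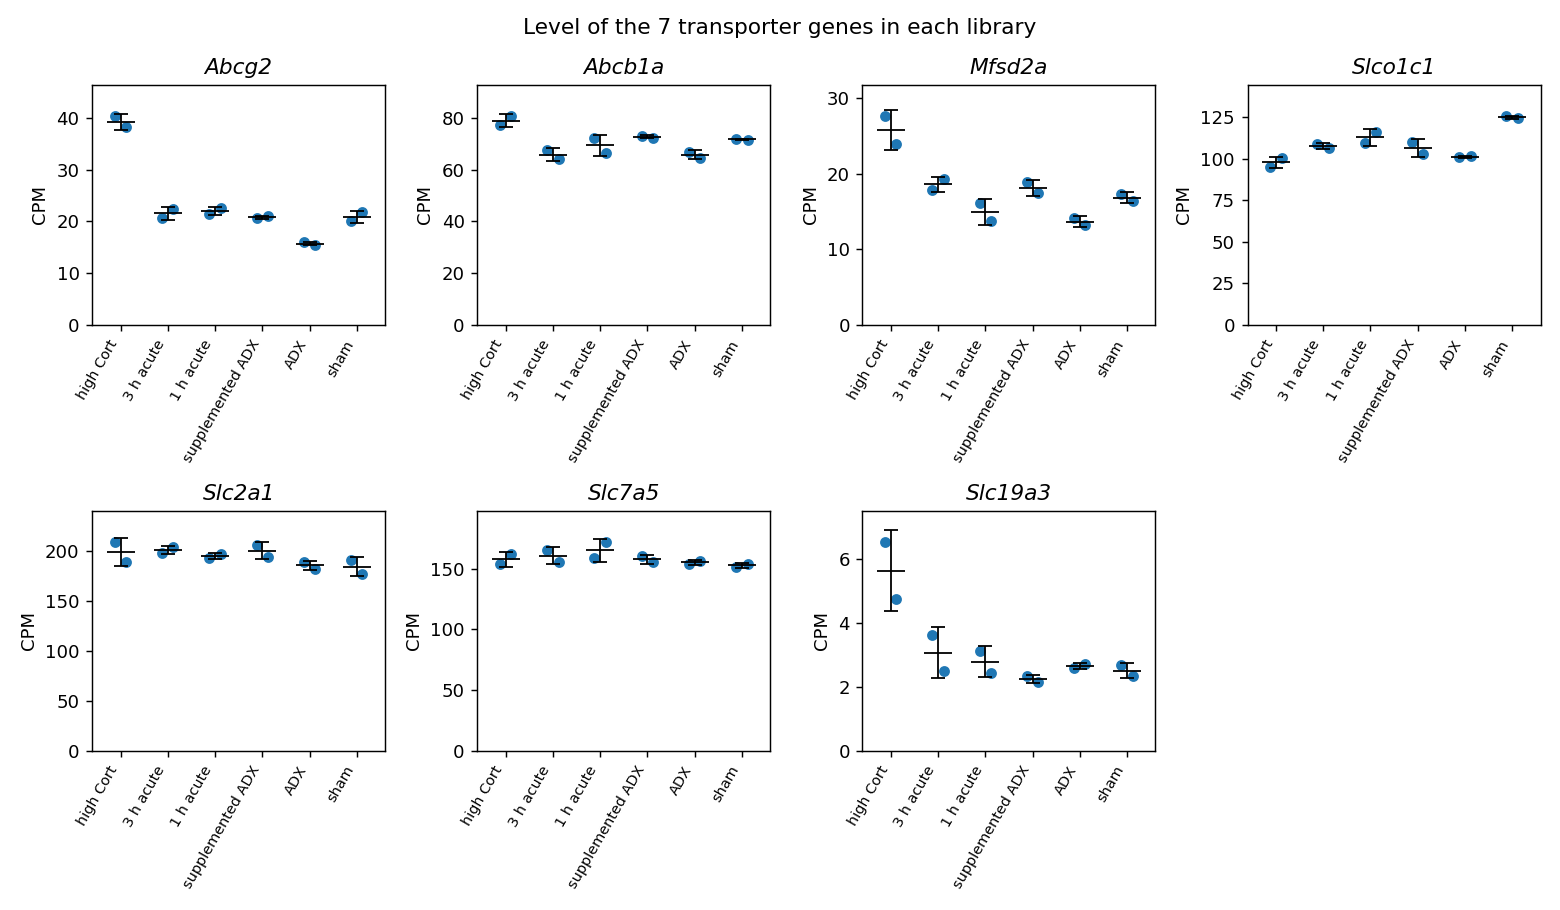
The plot shows the CPM of each of the 7 genes (vertical axes, starting at 0) in the libraries of each group (points), with the group mean and SD (horizontal mark and bar, n = 2). Abcg2, Mfsd2a and Slc19a3 were highest in the high Cort libraries, Slco1c1 was highest in sham, and Slc2a1 and Slc7a5 were close to level across groups.

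High Cort was set against sham to see what a sustained excess of corticosterone changed. Of the 7 genes, 3 rose (Abcg2, Mfsd2a and Slc19a3), Slco1c1 fell, and 3 did not pass the test (Abcb1a, Slc2a1 and Slc7a5). A gene passed at an adjusted p under 0.05 by edgeR's quasi-likelihood test, with Benjamini-Hochberg adjustment over all genes tested. By that rule 0.871% of the 12856 genes passed, 0.513% higher and 0.358% lower in high Cort. Because the 7 genes were chosen with earlier results known, their number of calls is no test of them as a set. The median log2 fold change was 0.14 over the 7 genes and 0.01 over all genes. In bulk tissue, fewer cells of a type and less RNA per cell cannot be told apart.

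Abcg2, the pump for many drugs and conjugated compounds, had 40.3 and 38.2 CPM in high Cort rats, against 20.0 and 21.7 CPM in sham rats. Both high Cort libraries lay far above both sham libraries. The level was 1.88-fold higher in high Cort (log2 fold change 0.91 ± 0.07 SE, adjusted p = 1.93e-05 by edgeR), and Abcg2 was called without each of the 4 libraries in turn. Abcb1a, the other pump, had 77.3 and 80.6 CPM in high Cort rats, against 71.9 and 71.5 CPM in sham rats. Its high Cort libraries were the higher ones by a small margin (0.14 ± 0.05, adjusted p = 0.384). Abcb1a and its near copy Abcb1b may share fragments, and how the authors' counting split them is not given in the sources used here. Abcb1b had 5.29 ± 0.239 CPM in high Cort rats and 4.62 ± 0.0127 CPM in sham rats, with no call (0.19 ± 0.13, adjusted p = 0.794). Abcg2 has an annotated pseudogene copy, so the same limit holds for it.

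Slc19a3, the thiamine carrier, had 6.52 and 4.73 CPM in high Cort rats, against 2.67 and 2.34 CPM in sham rats. The high Cort libraries lay above both sham libraries but apart from each other. The level was 2.23-fold higher (1.16 ± 0.20, adjusted p = 0.0105). This gene rests on few fragments, 44 to 161 per library. Mfsd2a, the lysolipid carrier, had 27.6 and 23.9 CPM in high Cort rats, against 17.3 and 16.4 CPM in sham rats, without overlap. It was 1.53-fold higher (0.61 ± 0.09, adjusted p = 0.00444). Without high Cort replicate 1 the adjusted p was 0.185 for Slc19a3 and 0.0974 for Mfsd2a, and without sham replicate 2 it was 0.104 and 0.0668 for the same genes.

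Slco1c1, the thyroxine carrier, moved the other way. It had 95.4 and 100.3 CPM in high Cort rats, against 125.7 and 124.4 CPM in sham rats, without overlap. It was 1.28-fold lower in high Cort (-0.35 ± 0.05, adjusted p = 0.00205), and the adjusted p was 0.0580 without high Cort replicate 1. Slc2a1, the glucose carrier, had 208.5 and 188.3 CPM in high Cort rats, against 190.5 and 177.0 CPM in sham rats, and the groups overlapped. Slc7a5, the amino acid carrier, had 153.5 and 162.1 CPM in high Cort rats, against 151.3 and 154.0 CPM in sham rats, and these overlapped too. Across Slc2a1 and Slc7a5 the 95% intervals of the log2 fold change reached from -0.06 to 0.22. Slc3a2, the heavy chain that Slc7a5 pairs with, had 132.3 ± 6.94 CPM in high Cort rats and 120.0 ± 0.129 CPM in sham rats (0.14 ± 0.05, adjusted p = 0.394).

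In the promoter set used here, on build GRCr8, 5 of the 7 genes had a sequence, and Mfsd2a and Slco1c1 had none. The deposited counts rest on rn6, so the positions below belong to GRCr8 alone. The 250 bases before the start of transcription are shown for Abcg2 and Slc19a3, which rose in high Cort, and for Slc2a1, which did not pass, so that the stretches can be read side by side. They run 5′ to 3′ on the strand of the gene. Capitals mark the GC box GGGCGG or its reverse, CCGCCC, the letters that the factor Sp1 is known to bind.
Abcg2 (chr4:89075224-89075473, plus strand): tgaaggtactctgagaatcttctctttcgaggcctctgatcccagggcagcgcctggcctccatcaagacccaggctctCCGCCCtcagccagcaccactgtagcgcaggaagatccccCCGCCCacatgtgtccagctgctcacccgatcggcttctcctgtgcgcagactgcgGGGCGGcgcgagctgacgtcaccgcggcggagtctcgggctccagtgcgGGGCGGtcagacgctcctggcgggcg
Slc19a3 (chr9:91747130-91747379, minus strand): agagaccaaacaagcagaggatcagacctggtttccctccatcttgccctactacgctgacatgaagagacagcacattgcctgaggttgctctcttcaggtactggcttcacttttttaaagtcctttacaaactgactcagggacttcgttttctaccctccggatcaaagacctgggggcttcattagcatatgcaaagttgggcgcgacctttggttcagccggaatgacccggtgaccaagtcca
Slc2a1 (chr5:138002272-138002521, plus strand): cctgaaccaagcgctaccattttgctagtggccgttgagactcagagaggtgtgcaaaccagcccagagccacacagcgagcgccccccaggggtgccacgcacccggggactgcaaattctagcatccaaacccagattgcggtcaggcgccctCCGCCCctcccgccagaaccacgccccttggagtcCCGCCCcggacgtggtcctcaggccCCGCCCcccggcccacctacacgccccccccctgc

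The Abcg2 stretch was 67.2% G and C, with 22 CpG and 4 GC boxes, and the Slc2a1 stretch was 68.4% G and C, with 17 CpG and 3 GC boxes. The Slc19a3 stretch held 7 CpG and 0 GC boxes. Over the same window of 33465 rat promoters the medians were 51.2% G and C and 5 CpG, and 30.5% held a GC box on either strand. The glucocorticoid receptor is known to bind a palindrome of the arms AGAACA and TGTTCT with 3 bases (NNN) between them. Searched on both strands, neither this palindrome nor a single arm, which lies inside it, occurred in the 250 bases of Abcg2, Abcb1a, Slc2a1, Slc7a5 or Slc19a3. A single arm occurred in 17.5% of all promoters and the palindrome in 0.012%. Slc7a5 held 4 GC boxes and Abcb1a 1. Abcg2 and Slc19a3, which both rose, thus differed in CpG and GC boxes. A missing match says only that the letters are not in this window.

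Of the 20 general endothelial markers 4 fell in high Cort and 16 did not pass, beside 0.358% of all genes called lower. The log2 fold change was negative for 19 of them, with a median of -0.21. Kdr, the main receptor for vascular endothelial growth factor, had 28.1 ± 2.79 CPM in high Cort rats and 50.8 ± 0.501 CPM in sham rats (-0.85 ± 0.08, adjusted p = 6.42e-05). Cd34, a surface glycoprotein of endothelial and blood stem cells (-0.71 ± 0.12, adjusted p = 0.00896), and the membrane protein gene Itm2a (-0.41 ± 0.07, adjusted p = 0.0130) fell as well. The tight junction gene Cldn5 had 41.2 ± 1.08 CPM in high Cort rats and 47.4 ± 0.856 CPM in sham rats (-0.21 ± 0.06, adjusted p = 0.237). The summed level of the 20 markers was 591.4 and 617.6 CPM in high Cort rats, against 709.4 and 696.6 CPM in sham rats. Set against this sum, Abcg2 came to 6.82% and 6.18% in high Cort rats, against 2.83% and 3.12% in sham rats. The sum itself was lower in high Cort, and shares of genes that were not called rose too. Abcb1a came to 13.1% and 13.1% in high Cort rats, against 10.1% and 10.3% in sham rats. Slc7a5 came to 26.0% and 26.2%, against 21.3% and 22.1%, and Slc2a1 to 35.3% and 30.5%, against 26.9% and 25.4%. A separate share was thus not particular to Abcg2. Slco1c1 came to 16.1% and 16.2% of the sum in high Cort rats, against 17.7% and 17.9% in sham rats, a smaller gap than in its level.

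With the mean level of the endothelial markers as a term in the model, no transporter of the 7 and no gene in all was called by edgeR in this comparison. The summed markers were 677.5 CPM or more in every library outside high Cort, and the errors were wider in that fit. The log2 fold change of Abcg2 was then 0.73 ± 0.19 (unadjusted p = 0.00169), that of Mfsd2a 0.69 ± 0.26, that of Slc19a3 0.69 ± 0.55 and that of Slco1c1 -0.24 ± 0.13. Of 12 pericyte and smooth muscle markers 1 fell, Pdgfrb (-0.30 ± 0.06, adjusted p = 0.0246). Of 12 astrocyte markers the connexin gene Gjb6 rose (0.44 ± 0.08, adjusted p = 0.0136), and the water channel gene Aqp4 (-0.26 ± 0.05) and the filament gene Gfap (-0.41 ± 0.07) fell, both at an adjusted p of 0.0183. The summed astrocyte level was 7216 to 7318 CPM in high Cort rats, against 7154 to 7278 CPM in sham rats. Red blood cell genes summed to 22.2 to 25.5 CPM in high Cort rats, against 35.7 to 41.5 CPM in sham rats. Of 12 oligodendrocyte markers 11 had a negative log2 fold change, with a median of -0.17 and 1 called, Enpp6 (-0.90 ± 0.15, adjusted p = 0.00664), and they summed to 6070 to 7327 CPM in high Cort rats, against 7482 to 8749 CPM in sham rats. Of 10 microglia markers 9 were negative and none was called, with sums of 227.9 to 261.4 CPM in high Cort rats, against 268.5 to 278.1 CPM in sham rats. The mean level of the endothelial markers was lower in both high Cort libraries than in every other library. The fit with that term could therefore hardly separate it from the group. The part of these cell types in the changes of the transporters was not tested.

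**Figure D2:**
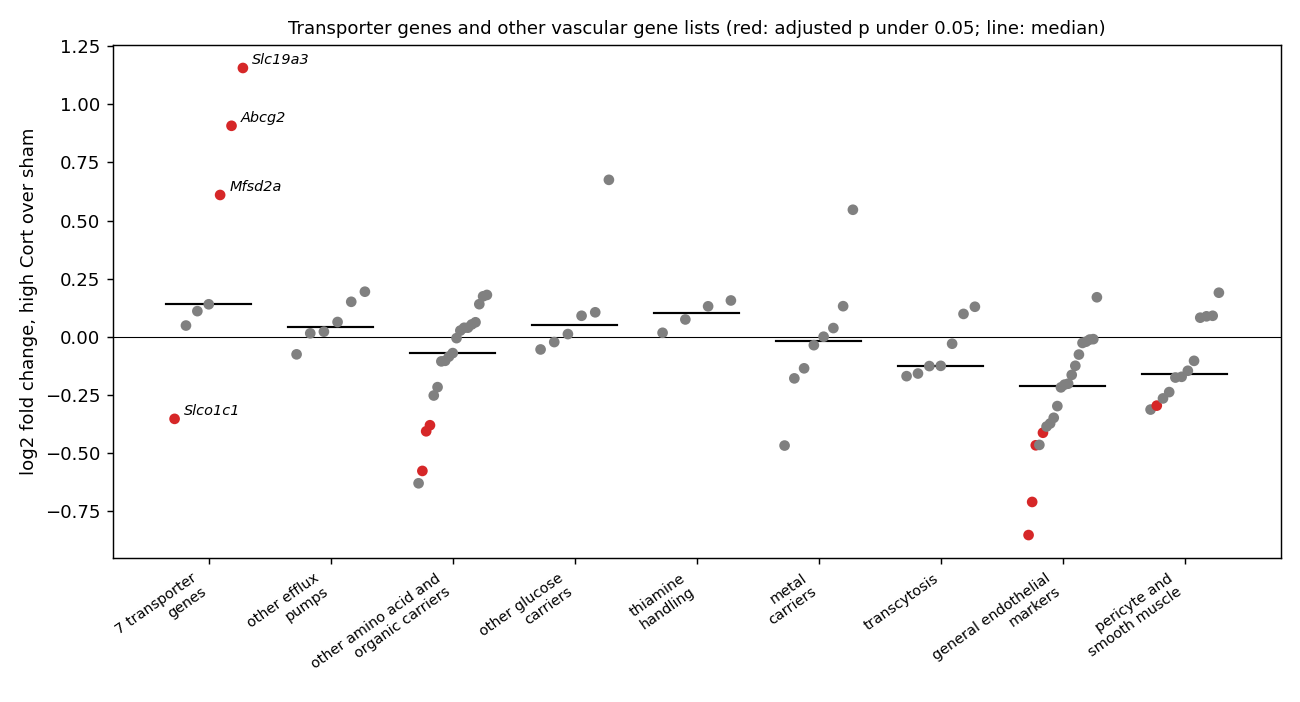
The plot shows the log2 fold change of high Cort over sham (vertical axis) for the 7 transporter genes and for the genes of 8 other lists (points, red where the adjusted p was under 0.05), with the median of each list as a line. Slc19a3, Abcg2 and Mfsd2a lie at 0.61 to 1.16, while 19 of the 20 general endothelial markers lie below 0.

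Among the other carriers and pumps, the calls in high Cort against sham were downward. Of 6 other efflux pumps none was called, with a median log2 fold change of 0.04 and positive values in 5. Of 19 tested amino acid and organic carriers 3 fell and none rose, with a median of -0.07. They were Slc16a1, the monocarboxylate carrier MCT1, at 71.8 ± 2.60 CPM in high Cort rats and 93.5 ± 3.41 CPM in sham rats (-0.38 ± 0.05, adjusted p = 0.00205), Slc22a8, an organic anion carrier (-0.58 ± 0.09, adjusted p = 0.00638), and Slco1a2, of the same carrier family as Slco1c1 (-0.41 ± 0.07, adjusted p = 0.0176). None of 4 thiamine handling genes, 6 other glucose carriers, 8 metal carriers and 7 receptors or vesicle genes of transcytosis was called. Slc19a2, the other thiamine carrier, had 32.1 ± 0.688 CPM in high Cort rats and 31.7 ± 2.26 CPM in sham rats (0.02 ± 0.06, adjusted p = 0.981). Each of 6 genes used to check corticosterone exposure rose, among them Sgk1, a kinase induced through the glucocorticoid receptor (1.35 ± 0.13, adjusted p = 0.00111), and Per1 (0.90 ± 0.08, adjusted p = 9.21e-05). Fkbp5, a co-chaperone of that receptor (0.56 ± 0.09, adjusted p = 0.00532), and Tsc22d3, the leucine zipper gene it induces (0.42 ± 0.08, adjusted p = 0.0340), were called too.

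ADX was set against sham to see what the loss of adrenal hormones changed. Abcg2 and Slco1c1 fell and the other 5 did not pass, while 0.233% of all genes passed, 0.101% lower in ADX. This comparison shares the sham libraries with the previous one. None of the 6 exposure check genes was called in ADX, 3 being positive and 3 negative, with a median log2 fold change of -0.03. Abcg2 had 16.01 and 15.46 CPM in ADX rats, against 20.0 and 21.7 CPM in sham rats, without overlap. It was 1.33-fold lower in ADX (-0.41 ± 0.07, adjusted p = 0.0368). Slco1c1 had 100.9 and 101.6 CPM in ADX rats, against 125.7 and 124.4 CPM in sham rats. The ADX libraries lay below both sham libraries and close to each other, 1.23-fold lower (-0.30 ± 0.05, adjusted p = 0.0208). Mfsd2a had 14.2 and 13.2 CPM in ADX rats, against 17.3 and 16.4 CPM in sham rats, a gap that did not pass (-0.30 ± 0.10, adjusted p = 0.218). Abcb1a had 67.0 and 64.5 CPM in ADX rats, against 71.9 and 71.5 CPM in sham rats (-0.12 ± 0.05, adjusted p = 0.329). Slc2a1, Slc7a5 and Slc19a3 had log2 fold changes of 0.01 to 0.08.

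Both calls in ADX depended on single libraries. Leaving out sham replicate 2 gave an adjusted p of 0.344 for Abcg2 and 0.0951 for Slco1c1. Leaving out ADX replicate 1 gave 0.202 for both genes, and leaving out ADX replicate 2 gave 0.246 for Abcg2 and 0.184 for Slco1c1. The general endothelial markers did not move with ADX: none of 20 was called, their median log2 fold change was 0.01, and they summed to 693.2 and 710.5 CPM in ADX rats, against 709.4 and 696.6 CPM in sham rats. As a share of that sum Abcg2 was 2.31% and 2.18% in ADX rats, against 2.83% and 3.12% in sham rats, and Slco1c1 was 14.6% and 14.3% in ADX rats, against 17.7% and 17.9% in sham rats. The 13 thalamus markers had a median log2 fold change of -0.52 in ADX, below 0 for each, and none was called. With their mean level as a term Abcg2 had -0.40 ± 0.09 (adjusted p = 0.117) and Slco1c1 kept its call. Of the 8 metal carriers Heph, a ferroxidase that works with the iron exporter, fell to 16.02 ± 0.284 CPM in ADX rats, against 33.6 ± 1.43 CPM in sham rats (-1.07 ± 0.13, adjusted p = 0.0106), and no other gene of the carrier and pump lists was called.

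Set directly against each other, high Cort and ADX differed for 4 of the 7 genes, all higher in high Cort, where 5.77% of all genes were called, 3.5% higher and 2.27% lower. The background is wider here than in the comparisons with sham. Abcg2 was 2.49-fold higher in high Cort than in ADX (1.32 ± 0.07, adjusted p = 1.17e-07), the widest gap of the 7 genes in any of the 10 comparisons. Mfsd2a was 1.88-fold higher (0.91 ± 0.09, adjusted p = 4.84e-05), Slc19a3 2.12-fold higher (1.08 ± 0.19, adjusted p = 0.00409) and Abcb1a also higher (0.26 ± 0.05, adjusted p = 0.00686). Abcb1a lost the call without high Cort replicate 1 (adjusted p = 0.0501), high Cort replicate 2 (0.104) or ADX replicate 2 (0.119), and Slc19a3 lost it without high Cort replicate 1 (0.0863) or ADX replicate 1 (0.0538). With the thalamus markers as a term, Abcb1a had an adjusted p of 0.109 and Slc19a3 one of 0.0740. Slco1c1 was not called, with 95.4 and 100.3 CPM in high Cort rats, against 100.9 and 101.6 CPM in ADX rats, and an interval of the log2 difference from -0.15 to 0.06. The high Cort libraries of Slco1c1 thus lay just below its ADX libraries, without overlap, and both groups lay below sham. Supplemented ADX, 3 h acute and 1 h acute lay below the same sham libraries too, with log2 fold changes of -0.23, -0.22 and -0.15. Slc2a1 and Slc7a5 did not pass either (adjusted p = 0.316 and 0.830).

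Of the other lists in this direct contrast, 8 of 20 general endothelial markers were lower in high Cort than in ADX and none higher, with Kdr at -0.86 ± 0.07 (adjusted p = 1.27e-05). Of the 19 amino acid and organic carriers 2 were higher and 6 lower, with Slc16a1 (-0.39 ± 0.05, adjusted p = 0.000562), Slc22a8 (-0.48 ± 0.09, adjusted p = 0.00638) and Slco1a2 (-0.39 ± 0.07, adjusted p = 0.00721) the ones of smallest p. Heph was higher in high Cort (1.62 ± 0.13, adjusted p = 4.71e-05). With the endothelial markers as a term, no member and no gene in all was called by edgeR in this contrast. Abcg2 had 1.12 ± 0.20 in that fit (adjusted p = 0.396).

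**Figure D3:**
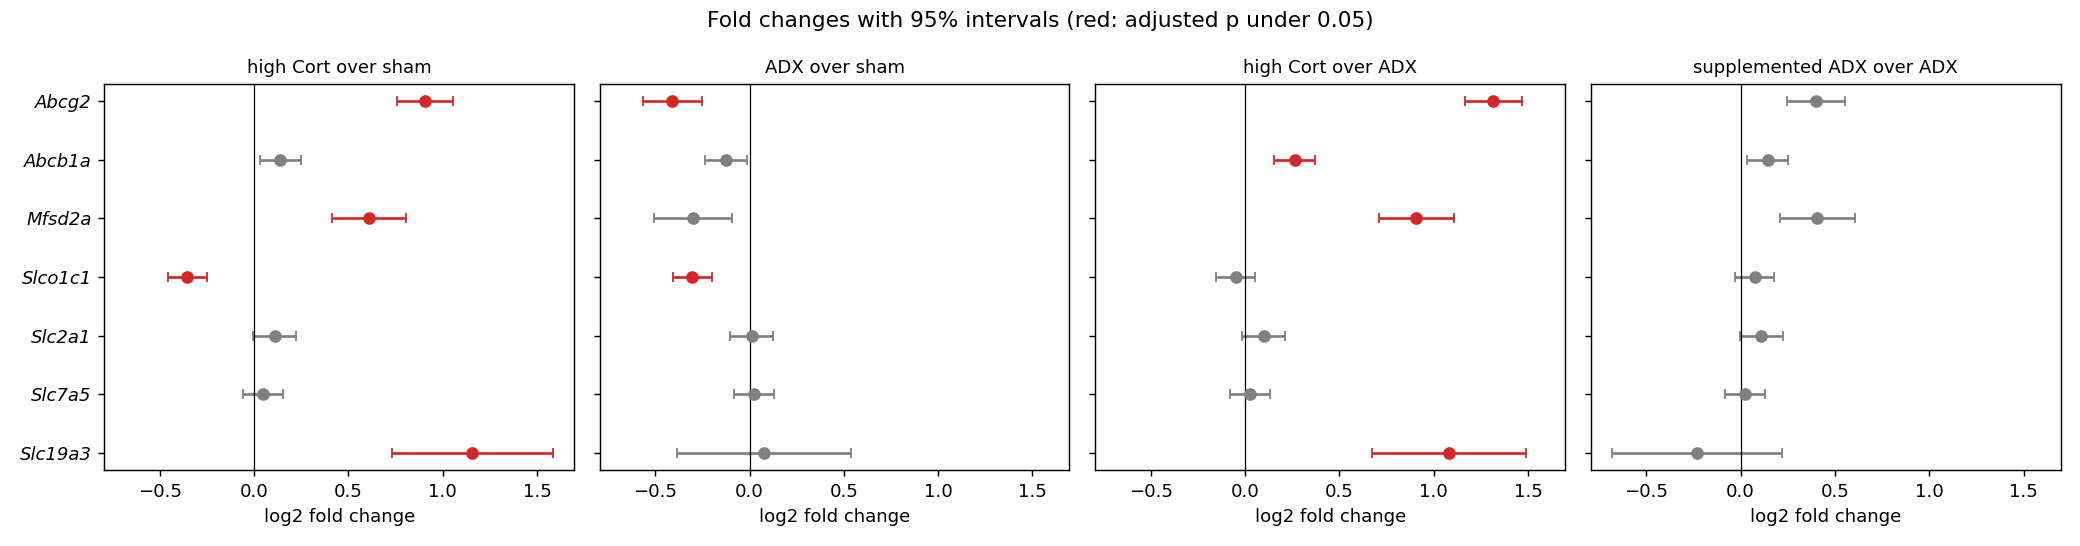
The plot shows the log2 fold change (horizontal axes) of the 7 genes with 95% intervals in 4 comparisons, red where the adjusted p was under 0.05. Abcg2 lies at 0.91 in high Cort over sham and at -0.41 in ADX over sham, while Slco1c1 lies below 0 in both, at -0.35 and -0.30.

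Supplemented ADX was compared with ADX, to see how corticosterone given after adrenalectomy changed these genes, and with sham. The comparison with ADX shares the ADX libraries with the one above. Both comparisons set groups of different processing runs, inferred from header labels, side by side, so run and group cannot be told apart. None of the 7 genes passed in either comparison by edgeR or DESeq2, with 0.0311% of all genes called against ADX and 0.0156% against sham. Unadjusted p values under 0.05 were found for 3 of the 7 genes against ADX and for 2 against sham. Over all 12856 genes, 521 had such a p against ADX and 1287 against sham. Abcg2 had 20.6 and 21.0 CPM in supplemented ADX rats, against 16.01 and 15.46 CPM in ADX rats, without overlap, a 1.32-fold higher level that did not pass (0.40 ± 0.07, adjusted p = 0.103). Mfsd2a had 18.9 and 17.4 CPM in supplemented ADX rats, against 14.2 and 13.2 CPM in ADX rats, also without overlap (0.41 ± 0.09, adjusted p = 0.399). In a fit of the 4 libraries alone these 2 genes were called by edgeR, at adjusted p values of 0.0182 for Abcg2 and 0.0322 for Mfsd2a. Over all genes 4 were called in the main fit of this comparison. The alternatives other than leaving out a library, this fit among them, called 0 to 33. Abcb1a had 73.0 and 72.2 CPM in supplemented ADX rats, against 67.0 and 64.5 CPM in ADX rats (0.14 ± 0.05, adjusted p = 1.00).

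Against sham, Slco1c1 had 110.4 and 102.8 CPM in supplemented ADX rats and 125.7 and 124.4 CPM in sham rats, a gap that did not pass (-0.23 ± 0.05, adjusted p = 0.135). Slc2a1 had 205.7 and 194.0 CPM in supplemented ADX rats, against 190.5 and 177.0 CPM in sham rats (0.12 ± 0.05, adjusted p = 0.483). The Abcg2 levels of supplemented ADX, at 20.6 and 21.0 CPM, fell between those of the sham libraries, with a 95% interval of the log2 difference from -0.16 to 0.15. None of the 20 general endothelial markers and none of the 6 exposure check genes was called in either comparison.

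The acute groups asked what acute corticosterone changed within hours. Of the 6 exposure check genes Per1 rose at 1 h, with 84.9 ± 3.47 CPM in 1 h acute rats and 49.6 ± 1.28 CPM in supplemented ADX rats (0.77 ± 0.08, adjusted p = 0.00174, where 0.0389% of all genes were higher at 1 h), and none was called at 3 h. No transporter gene was called by edgeR or DESeq2 in 1 h acute against supplemented ADX, in 3 h acute against supplemented ADX or in 3 h acute against 1 h acute, where 0.0467%, 0.00778% and 0.0233% of all genes were called. Each of the 3 comparisons held 1 gene of the 7 with an unadjusted p under 0.05, beside 1891, 1612 and 1366 of 12856 genes. In the first it was Mfsd2a, with 16.1 and 13.8 CPM in 1 h acute rats, against 18.9 and 17.4 CPM in supplemented ADX rats (-0.27 ± 0.10, adjusted p = 0.240). At 3 h Mfsd2a had 17.8 and 19.3 CPM, above both 1 h acute libraries, and this gap did not pass either (0.30 ± 0.10, adjusted p = 0.310). In 3 h acute against supplemented ADX it was Abcb1a, with 67.5 and 64.1 CPM in 3 h acute rats, against 73.0 and 72.2 CPM in supplemented ADX rats (-0.14 ± 0.05, adjusted p = 0.293).

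The genes that rose in high Cort were not called in the acute groups. Abcg2 had 20.7 and 22.4 CPM in 3 h acute rats, 21.4 and 22.6 CPM in 1 h acute rats, and 20.6 and 21.0 CPM in supplemented ADX rats. The 95% interval of its log2 fold change over supplemented ADX was -0.10 to 0.21 at 3 h and -0.08 to 0.23 at 1 h. Slc19a3 had 3.61 and 2.49 CPM in 3 h acute rats, 3.12 and 2.44 CPM in 1 h acute rats, and 2.33 and 2.16 CPM in supplemented ADX rats. Its intervals were wide, from -0.04 to 0.91 at 3 h and from -0.12 to 0.81 at 1 h. In high Cort over sham, which has another reference, its interval was 0.73 to 1.58 and overlapped both. A difference between acute and sustained exposure was not tested. The thalamus markers summed to 1546 to 1642 CPM in 3 h acute rats, 1016 to 1650 CPM in 1 h acute rats, and 1945 to 2038 CPM in supplemented ADX rats.

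**Figure D4:**
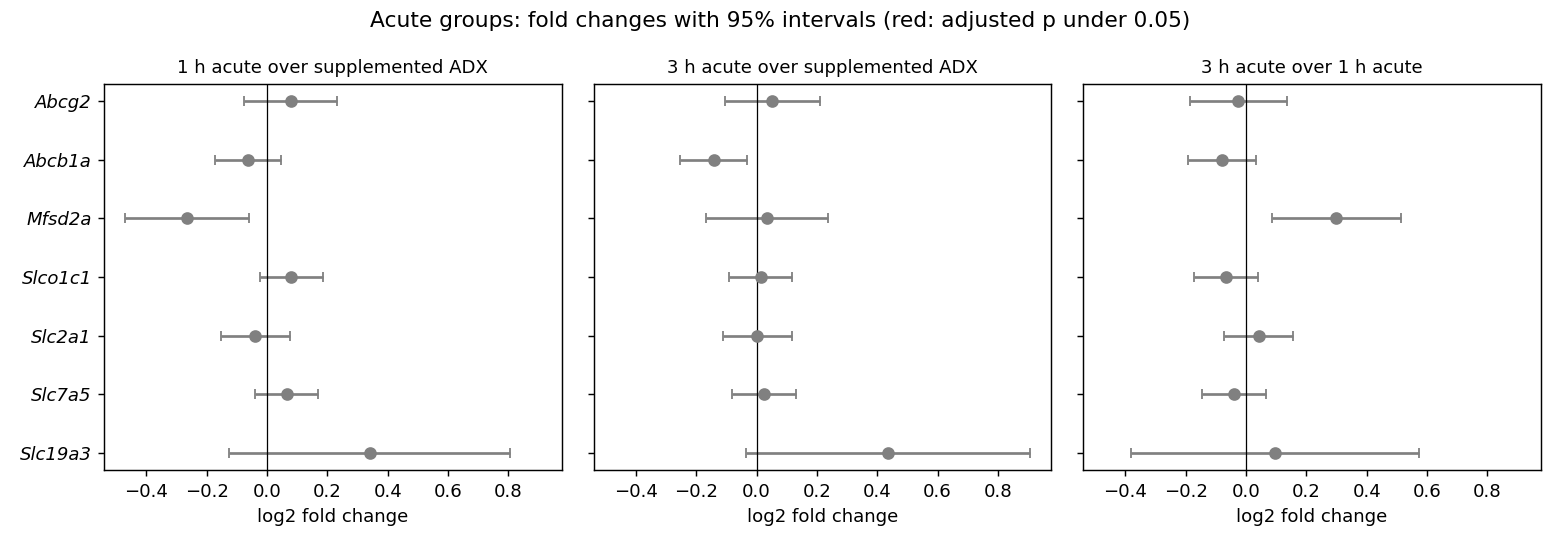
The plot shows the log2 fold change (horizontal axes) of the 7 genes with 95% intervals in the 3 comparisons of the acute groups, red where the adjusted p was under 0.05. No gene is red, and the interval of Slc19a3 is the widest, reaching 0.91 in 3 h acute over supplemented ADX.

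The acute groups were also set against sham, across the inferred processing runs. In 3 h acute 7.98% of all genes were called, 4.57% lower, and in 1 h acute 12.8% were, 5.56% higher and 7.2% lower, so calls were more common there than in the comparisons above. At 3 h Slco1c1 fell, with 109.2 and 106.3 CPM in 3 h acute rats, against 125.7 and 124.4 CPM in sham rats (-0.22 ± 0.05, adjusted p = 0.0196). It lost the call without each of the 4 libraries, with adjusted p values of 0.0640 and 0.123 without sham replicate 1 and 2, and 0.0556 and 0.144 without 3 h acute replicate 1 and 2, and had 0.309 with the thalamus markers as a term. In the same comparison 12 of 13 thalamus markers were below 0 on the log2 scale, with a median of -0.91 and 1 called lower, 4 of 12 neuron markers were called lower, and 2 of 4 red blood cell genes were called higher. At 1 h against sham 8 of 13 thalamus markers and 8 of 12 neuron markers were called lower. The part of these shifts in the transporter values was not tested beyond the thalamus term. At 1 h none of the 7 genes was called by edgeR or DESeq2, with 2 of 7 at an unadjusted p under 0.05. Such a p was also found for 3521 of the 12856 genes tested. Slco1c1 had 109.5 and 116.4 CPM in 1 h acute rats, against 125.7 and 124.4 CPM in sham rats (-0.15 ± 0.05, adjusted p = 0.0576). Slc7a5 had 158.5 and 171.9 CPM in 1 h acute rats, against 151.3 and 154.0 CPM in sham rats (0.11 ± 0.05, adjusted p = 0.156), and was called without 1 h acute replicate 1 (adjusted p = 0.0450). Slc2a1 and Abcb1a did not pass at 3 h (0.12 ± 0.05, adjusted p = 0.165, and -0.12 ± 0.05, adjusted p = 0.159). The sham libraries held the highest Slco1c1 levels of the 12 libraries.

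The genes whose levels across the 12 libraries were most like those of each transporter were taken from 10179 genes with a mean of at least 5 CPM, by Pearson's r of log2 CPM. The coefficients describe these libraries, which share groups, and r is given also for the 10 libraries without high Cort. The nearest genes were picked as the highest of 10179 coefficients, and how high unrelated genes would reach was not tested. Nearest to Abcg2 were Paqr8 (0.97, and 0.91 without high Cort), Gpd1 (0.95 and 0.75) and Sgk1 (0.94 and 0.63). Nearest to Mfsd2a were Fkbp5 (0.95 and 0.89), Aass (0.94 and 0.91) and Cxcl12 (0.94 and 0.93). Nearest to Slc19a3 were Tinagl1 (0.92 and 0.58), Sgk1 (0.91 and 0.28) and Prmt7 (0.89 and 0.55), so that its likeness to Sgk1 rested on the high Cort libraries. For Slco1c1 the nearest were Cldn10 (0.85 and 0.82), Prex1 (0.83 and 0.79) and Rab40c (0.82 and 0.85), and for Abcb1a they were Fam49a (0.92 and 0.84), Epha3 (0.89 and 0.78) and Nxpe3 (0.89 and 0.79). For Slc2a1 they were Plekhj1, Dok7 and Ddrgk1 (0.88, 0.85 and 0.85 over the 12 libraries, and 0.88, 0.86 and 0.86 without high Cort), and for Slc7a5 they were Bcor, Pdxk and Blcap (0.91, 0.90 and 0.90, and 0.92, 0.92 and 0.94 without high Cort). Among the transporters themselves Abcg2 had coefficients of 0.89 with Mfsd2a, 0.80 with Slc19a3 and 0.76 with Abcb1a, which were 0.59, -0.10 and 0.34 without high Cort. Slco1c1 had -0.53 with Slc19a3, -0.38 with Mfsd2a and -0.32 with Abcg2, which were -0.05, 0.19 and 0.52 without high Cort, so that these negative coefficients rested on the high Cort libraries.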

How the data were processed

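RNA-seq libraries (Illumina TruSeq, HiSeq2000) were made from PVH tissue. Build rn6, TopHat2 2.1.1, Cufflinks 2.2.1 and CASAVA 1.8.2 are named in the submitters' processing notes; the annotation is not given in the sources used here. Raw fragments, deposited unscaled by the authors, are expected counts; 0.751% of values were not whole, none of them of the 7 genes, and were rounded. In the headers the same condition labels recur in 2 sets of groups, one of sham, high Cort and ADX. These sets were read as 2 processing runs, within which the authors scaled the deposited FPKM values. The runs are thus inferred from the labels.

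Testing used edgeR 4.0.16 (R 4.3.3) after filterByExpr (minimum count 10, minimum total 15) and TMM scaling. All 12 libraries entered one robust quasi-likelihood model, with a term for each group, which was tested on simulated data. Each of 10 comparisons was tested on 2 sides with Benjamini-Hochberg adjustment over 12856 genes; SE is the log2 fold change over the root of F. A permutation of 2 against 2 libraries gives no p under 0.333. Alternatives were RLE, other filters, DESeq2 1.42.0, log2 FPKM (pseudocount 1 or 0.1) in limma-trend 3.58.1, a fit of the 4 libraries, a replicate block, marker scores as terms and leaving out each library. Library totals without scaling factors and a fit of the 6 libraries of a run were added after seeing the data. The members and lists were chosen with earlier results of these data known. The text names the 7 members, up to 3 called genes of smallest p per list, Sgk1, Per1, Fkbp5, Tsc22d3 and the 3 genes most like each member; Cldn5, Abcb1b, Slc3a2 and Slc19a2 were added after their values were seen.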

Additional observations from a re-analysis of the deposited data

How the results depend on the processing

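Among 1036 refits of the log2 fold changes of the 7 genes, 947 kept direction and side of the threshold, 47 lost a call, 3 gained one and 39 changed sign. The sign changes were all of values not called in the main analysis or in the refit, and lay between -0.19 and 0.07. In high Cort against sham 4 of the 7 genes were called, 2 by limma-trend on FPKM with either pseudocount, 0 with the endothelial score, and 1 to 4 without one library. In ADX against sham 2 were called. The count there was 1 with library totals, the thalamus score, the endothelial score, DESeq2 (no adjusted p for Abcg2) or the 4 libraries alone, 0 by limma-trend with either pseudocount, and 0 to 2 without one library. In high Cort against ADX 4 were called, 2 with the thalamus score, 0 with the endothelial score and 2 to 3 without one library. With the endothelial score no gene in all was called in high Cort against sham or against ADX. In supplemented ADX against ADX 0 of the 7 were called, and 2 in the 4 libraries alone. In 3 h acute against sham 1 was called, 0 with the thalamus score and 0 without any one library, and in 1 h acute against sham 0, and 0 to 1 without one library. RLE, both other filters and the fit of a processing run changed none of these counts by over 1.5 times. With the replicate block the count in ADX against sham was 1, with Abcg2 at an adjusted p of 0.0525, and every other count was the same; nothing in the labels ties the numbers to animals or days, and libraries of one number deviated from their group means with correlations of -0.19 to 0.10.

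Over all genes, 112 were called in high Cort against sham (0 to 161 over the alternatives, 23 to 121 without one library), 30 in ADX against sham (5 to 123, and 4 to 148), 742 in high Cort against ADX (0 to 1653, and 157 to 386), 4 in supplemented ADX against ADX (0 to 33, and 0 to 4) and 2 against sham (1 to 42, and 0 to 64). They were 6 in 1 h acute against supplemented ADX (1 to 76, and 1 to 624), 1 in 3 h acute (0 to 154, and 0 to 0), 3 in 3 h against 1 h acute (3 to 24, and 0 to 35), and 1641 and 1026 in 1 h and 3 h acute against sham (4 to 1848 and 4 to 1128, and 144 to 2125 and 81 to 997). The causes were not tested. With 44 to 161 fragments per library, depth limits Slc19a3 most.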
